A study of Homo sapiens with 4 samples.

Results

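The stathmins and the classical microtubule-associated proteins were followed at the RNA level in HEK293T cells after knockdown of RPRD1B. The 10 genes were taken by symbol from the 69222 gene identifiers of the count tables. They are the stathmins STMN1, STMN2, STMN3 and STMN4, the MAP1 family genes MAP1A, MAP1B and MAP1S, and MAP2, MAP4 and MAPT, the gene of tau. HEK293T is a human embryonic kidney cell line. The 2 shRPRD1B samples were cells given a lentivirus with an shRNA against RPRD1B, and the 2 shCtrl samples received a control shRNA the same way. RPRD1B encodes a protein that binds the phosphorylated tail of RNA polymerase II, and the study's title ties it to polyadenylation of cell cycle genes. Both groups were therefore transduced cell populations that differed in the shRNA. The sources used here do not give the shRNA sequences, their number, the time after transduction, or whether the 2 samples of a group were separate cultures. A p-value here may therefore reflect technical spread alone.

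Microtubules are hollow filaments of alpha- and beta-tubulin that grow and shrink at their ends. Stathmins bind free tubulin and favour shrinkage, and phosphorylation switches them off. The microtubule-associated proteins, or MAPs, sit on the filament wall and stabilise or space microtubules. STMN1 is the soluble stathmin of dividing cells, while STMN2, STMN3 and STMN4 are chiefly neural and carry an added membrane anchor. MAP1A, MAP1B, MAP2 and tau are best known from neurons, whereas MAP4 and MAP1S are found in most tissues. HEK293 lines are known to express several neuronal genes.

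The promoters of 4 genes are shown because the main contrasts were within a family, STMN3 against STMN1 and MAP1B against MAP1A. Each runs from 250 bases before to 50 bases after a transcription start, from RefSeq (GRCh38.p14), 5′ to 3′ on the gene's own strand. Capitals mark GC boxes (GGGCGG) and TATA boxes (TATAAA) on either strand. The STMN3 promoter lies at chr20:63652717-63653016 on the minus strand, STMN1 at chr1:25905996-25906295 on the minus strand, MAP1B at chr5:72107225-72107524 on the plus strand and MAP1A at chr15:43517358-43517657 on the plus strand. For genes with several entries, the one nearest to the start of the GENCODE transcript used here was taken. The RefSeq start lay 661 bases from that GENCODE start for STMN3, 108 for STMN1, 241 for MAP1B and 17 for MAP1A. The STMN3, STMN1 and MAP1A windows lie inside the spans of their genes given below, downstream of the outermost start.
STMN3: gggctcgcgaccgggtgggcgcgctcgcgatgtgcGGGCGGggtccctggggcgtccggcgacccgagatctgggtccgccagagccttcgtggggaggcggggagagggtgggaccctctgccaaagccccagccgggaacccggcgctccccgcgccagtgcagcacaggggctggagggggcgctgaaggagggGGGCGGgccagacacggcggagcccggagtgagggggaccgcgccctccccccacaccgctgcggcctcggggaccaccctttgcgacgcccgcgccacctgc
STMN1: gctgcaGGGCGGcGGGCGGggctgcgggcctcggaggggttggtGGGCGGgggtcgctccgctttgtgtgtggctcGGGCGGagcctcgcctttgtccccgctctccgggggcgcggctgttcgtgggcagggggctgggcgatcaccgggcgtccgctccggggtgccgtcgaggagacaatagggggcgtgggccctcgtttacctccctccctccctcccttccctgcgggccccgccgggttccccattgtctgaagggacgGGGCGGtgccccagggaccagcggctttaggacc
MAP1B: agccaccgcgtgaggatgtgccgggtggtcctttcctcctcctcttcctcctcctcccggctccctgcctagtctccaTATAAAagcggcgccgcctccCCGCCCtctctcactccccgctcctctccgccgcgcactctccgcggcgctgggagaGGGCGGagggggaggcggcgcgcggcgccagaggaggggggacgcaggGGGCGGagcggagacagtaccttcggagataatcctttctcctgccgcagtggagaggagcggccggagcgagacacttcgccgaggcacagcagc
MAP1A: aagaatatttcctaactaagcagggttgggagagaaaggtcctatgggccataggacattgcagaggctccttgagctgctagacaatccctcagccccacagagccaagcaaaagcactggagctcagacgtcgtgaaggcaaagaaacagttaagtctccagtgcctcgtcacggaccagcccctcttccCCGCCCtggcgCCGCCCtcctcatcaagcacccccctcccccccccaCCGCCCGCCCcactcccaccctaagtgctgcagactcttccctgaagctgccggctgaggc

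The STMN3 and STMN1 promoters were alike in base composition. They were 77.7% and 74.3% G or C and held 35 and 31 CpG dinucleotides, against medians of 58.7% and 14 over 35116 promoters. STMN3 had 2 GC boxes and STMN1 had 5, a word found in 45% of all promoters. MAP1B was 70% G or C with 31 CpG, 3 GC boxes and 1 TATA box, which began 172 bases before the start, a word found in 11.5% of promoters. MAP1A was 60% G or C with 10 CpG and 4 GC boxes, some of which overlap. Another MAP1A entry, at chr15:43510704-43511003, was 69.3% G or C with 23 CpG and 2 GC boxes. Another MAP1B entry was 57.7% G or C with 12 CpG, 2 GC boxes and 1 TATA box. The other STMN1 entries held 3 and 0 GC boxes. These values therefore depend on which start is taken. A core word of the RE1 element, which binds the neuronal gene repressor REST, was in none of the 14 promoter entries of the 7 matched genes and in 20 (0.057%) of all promoters. These word matches are descriptions of the windows. STMN2, STMN4 and MAPT had no entry.

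The libraries held between 47732913 and 65572391 read counts. RPRD1B itself had 27.2 and 35.5 CPM (read counts scaled to library size) in shRPRD1B cells, against 50.4 and 50.1 CPM in shCtrl cells, so both knockdown libraries lay below both controls. Its log2 fold change was -0.68 ± 0.16 (SE), with an adjusted p of 0.448 by edgeR's quasi-likelihood test and 0.0467 by DESeq2. The shRPRD1B libraries differed more from each other than the shCtrl libraries did. Over 8966 genes of at least 16 CPM, the SD of the log2 ratio between the libraries of a group was 0.394 for shRPRD1B and 0.172 for shCtrl. Of the kidney epithelium markers, KRT18 was at 55.6 and 48.4 CPM in shRPRD1B cells and at 58.7 and 58.1 CPM in shCtrl cells, whereas PAX8 had at most 2 counts and KRT19 had 0 in every library. In bulk RNA, fewer cells of a type and less RNA per cell cannot be told apart.

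Of the 10 genes, 8 passed the low-count filter (a minimum count of 10 in edgeR's filterByExpr) and STMN2 and STMN4 did not. No gene of the 8 passed the adjusted threshold of 0.05 in edgeR, where 0.0295% of 20319 tested genes were called higher and 0.0394% lower. DESeq2 called 1 of them, STMN3, as higher, with 0.62% of tested genes called higher and 0.561% lower. limma voom called none of the 8, nor any other gene. At an unadjusted p under 0.05 in limma voom, STMN3 and MAP1B were higher and none lower, against 7.13% of tested genes in either direction. At an unadjusted p under 0.05 in edgeR, 2 of the 8 were higher in shRPRD1B (STMN3 and MAP1B) and 0 were lower, against 3.55% and 3.94% of tested genes. Both shRPRD1B libraries were above both shCtrl libraries for 4 genes (STMN1, STMN3, MAP1B and MAP2), a pattern seen in 20.3% of tested genes. None had both below, a pattern seen in 20.6%, and the remaining 4 overlapped. Groups without overlap in either direction made up 40.9% of tested genes. The median log2 fold change of the 8 genes was 0.09. That of all tested genes was 0.00, and that of tested genes with a mean of at least 16 CPM was 0.03. These counts cover only the genes that passed the filter.

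**Figure D1:**
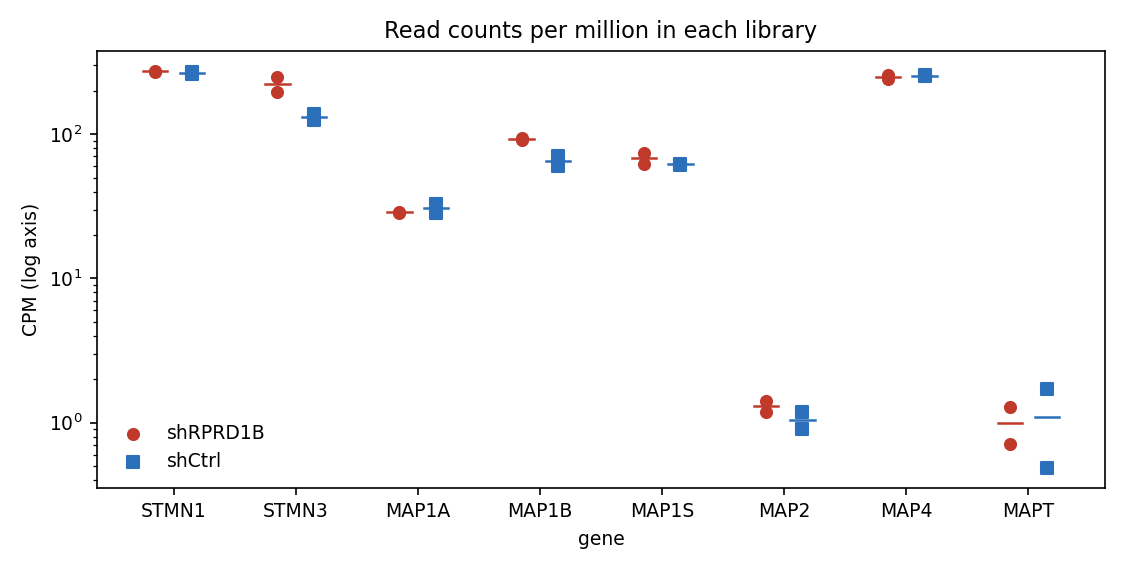
CPM on a log axis of the 8 tested genes in each library, with shRPRD1B as circles left of shCtrl as squares and a line at each group mean (2 libraries a group). STMN3 and MAP1B show the clearest gaps between groups, at 251 and 194 against 137 and 125 CPM for STMN3, while the MAPT libraries of each group are spread apart.

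Among the stathmins, STMN3 RNA was about 1.70 times as high in shRPRD1B cells as in shCtrl cells, while STMN1 differed by less than the spread that its interval allows. STMN3 (SCLIP, ENSG00000197457.10, chromosome 20, 63639712 to 63653424, GRCh38) encodes a membrane-anchored stathmin of neurons. It had 16424 and 10661 counts in shRPRD1B cells, against 6492 and 6067 in shCtrl cells, or 251 and 194 CPM against 137 and 125 CPM. Both shRPRD1B libraries were above both controls. The first shRPRD1B library was the highest of the 4, and it also had the lower RPRD1B level of the knockdown pair. STMN1 and MAPT were also higher in the first than in the second knockdown library. MAP1A, MAP1B, MAP1S, MAP2 and MAP4 were lower in the first. A relation to the RPRD1B level cannot be read from 2 libraries.

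STMN3 averaged 223 ± 39.7 CPM in shRPRD1B cells and 131 ± 8.75 CPM in shCtrl cells (SD, n = 2 each). The log2 fold change was 0.77 ± 0.16 (SE), with a 95% interval of 0.38 to 1.15. In edgeR the unadjusted p was 0.00299, rank 159 of the 20319 genes, and the adjusted p was 0.378. DESeq2 gave an adjusted p of 0.00526 at the same fold change, and limma voom 0.458. Among the 4975 genes with a mean of at least 50 CPM, 8 (0.161%), STMN3 included, had a log2 fold change at least as high. Over all 20319 tested genes 4.32% did. Genes lower by as much were not counted. The smallest two-sided p that an exact permutation of 2 against 2 libraries can give is 0.333.

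The call on STMN3 depended on the tool, and the size of its log2 fold change on the libraries. Leaving out the first shRPRD1B library gave 0.57, and leaving out the second gave 0.94. Leaving out a shCtrl library gave 0.84 and 0.70. Such fits leave 1 library in a group, whose spread is then not measured, so only the fold change is given. Its gap between the shRPRD1B libraries was 0.37 on the log2 scale, near the SD of 0.394 given above for genes of at least 16 CPM in that group.

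STMN1 (stathmin 1, ENSG00000117632.23, chromosome 1, 25884179 to 25906880), the stathmin of proliferating cells, had the highest level per length of the 10 genes. It was at 276 and 271 CPM in shRPRD1B cells and at 269.6 and 262 CPM in shCtrl cells. The knockdown libraries lay just above the controls, and by less than the gap between the controls. Means were 273 ± 3.17 CPM in shRPRD1B cells and 266 ± 5.39 CPM in shCtrl cells (SD, n = 2 each). The log2 fold change was 0.04 ± 0.10 (SE), with an interval of -0.22 to 0.30 and an adjusted p of 0.93 in edgeR, and the interval ends below the fold fitted for STMN3.

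The 2 remaining stathmins were near the limit of counting. STMN2 (SCG10, ENSG00000104435.14, chromosome 8, 79611117 to 79666158), a stathmin of growing axons, had 5 and 6 counts in shRPRD1B cells, against 2 and 0 in shCtrl cells. The ratio of summed counts per library size was 4.39, with an exact interval of 0.958 to 40.8 that covers counting error only and includes equal levels. STMN4 (RB3, ENSG00000015592.17, chromosome 8, 27235308 to 27258404), a neural stathmin, had 2 and 0 counts in shRPRD1B cells and 0 and 2 in shCtrl cells. Both groups were at or under a floor of 3 counts per library, so no fold is given.

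The balance between STMN3 and STMN1 within each library removes library scaling from the comparison. The ratio of STMN3 to STMN1 counts was 0.910 and 0.718 in shRPRD1B cells, against 0.508 and 0.476 in shCtrl cells, and the groups did not overlap. STMN3 was already seen to be higher and STMN1 nearly equal, so this ratio mostly restates the STMN3 gap. The share of other gene pairs without overlap was not computed. The means were 0.814 ± 0.136 in shRPRD1B cells and 0.492 ± 0.0230 in shCtrl cells (SD, n = 2 each), a ratio of 1.65 between groups. Per length, STMN3 made up 40.8% and 35.3% of stathmin RNA in shRPRD1B cells and 27.8% and 26.5% in shCtrl cells. The summed stathmin level was 526 and 466 CPM in shRPRD1B cells and 407 and 387 CPM in shCtrl cells.

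**Figure D2:**
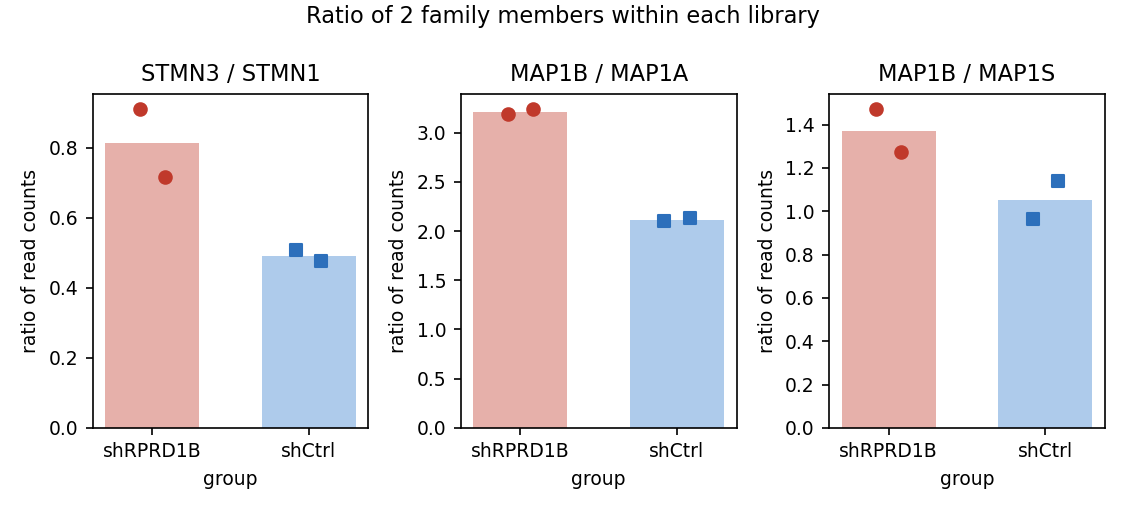
Ratios of read counts of family members within each library, with bars at the mean from 0 and points for the 2 libraries of each group, shRPRD1B left of shCtrl. STMN3/STMN1 and MAP1B/MAP1A do not overlap between groups (3.19 and 3.24 against 2.10 and 2.13 for MAP1B/MAP1A), nor does MAP1B/MAP1S (1.47 and 1.27 against 0.964 and 1.14). STMN3 and MAP1B were already seen to be higher, so these ratios mostly restate their gaps.

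In the MAP1 family, MAP1B RNA was 1.42 times as high in shRPRD1B cells as in shCtrl cells, and MAP1A and MAP1S overlapped between groups. MAP1B (ENSG00000131711.15, chromosome 5, 72107475 to 72209565) encodes a large protein of growing axons that is cut into a heavy and a light chain. It had 91.3 and 93.8 CPM in shRPRD1B cells, against 60.0 and 70.0 CPM in shCtrl cells. The knockdown libraries were close to each other and above both controls. Means were 92.5 ± 1.80 CPM in shRPRD1B cells and 65.0 ± 7.08 CPM in shCtrl cells (SD, n = 2 each).

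The log2 fold change of MAP1B was 0.51 ± 0.13 (SE), with an interval of 0.20 to 0.82. Its unadjusted p in edgeR was 0.00745, rank 312, and its adjusted p was 0.481. DESeq2 gave an adjusted p of 0.113 and limma voom 0.536. Among the 4975 genes of at least 50 CPM, 23 (0.462%), MAP1B included, had a log2 fold change at least as high, and over all tested genes 7.84% did. Without the first shRPRD1B library the value was 0.53, and without the second 0.49. Without a shCtrl library it was 0.40 and 0.62.

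MAP1A (ENSG00000166963.13, chromosome 15, 43510954 to 43531611), the relative of MAP1B that predominates in mature neurons, had 28.6 and 28.99 CPM in shRPRD1B cells and 28.6 and 32.8 CPM in shCtrl cells. The groups overlapped, and the log2 fold change was -0.09 ± 0.13 (SE, interval -0.42 to 0.24), with an adjusted p of 0.858 in edgeR. MAP1S (ENSG00000130479.11, chromosome 19, 17719480 to 17734513), the short and widely expressed member of the family, had 62.1 and 73.6 CPM in shRPRD1B cells and 62.3 and 61.4 CPM in shCtrl cells. The second knockdown library was high and the first lay between the controls. The log2 fold change was 0.13 ± 0.13 (SE, interval -0.19 to 0.46), with an adjusted p of 0.801 in edgeR. Without the first shRPRD1B library it was 0.25, and without the second 0.01.

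Within libraries, MAP1B counts were 3.19 and 3.24 times those of MAP1A in shRPRD1B cells, against 2.10 and 2.13 times in shCtrl cells. The ratios were tight in each group, at 3.21 ± 0.0318 in shRPRD1B cells and 2.12 ± 0.0243 in shCtrl cells (SD, n = 2 each), a ratio of 1.52 between groups. The smallest exact two-sided p with this design is 0.333, so no permutation test can separate them. MAP1B was already seen to be higher, so this ratio, too, mostly restates its gap. Per length, MAP1S was the main MAP1 RNA, at 63.6% and 67.0% of the family in shRPRD1B cells and 70.1% and 66.6% in shCtrl cells. MAP1B held 26.6% and 24.2% in shRPRD1B cells, against 19.2% and 21.6% in shCtrl cells.

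MAP2, MAP4 and tau share repeats that bind the microtubule wall. MAP4 (ENSG00000047849.22, chromosome 3, 47850695 to 48088848), the family member of dividing and non-neuronal cells, had 242 and 257 CPM in shRPRD1B cells and 252 and 255 CPM in shCtrl cells. The groups overlapped, with a log2 fold change of -0.02 ± 0.11 (SE, interval -0.29 to 0.24) and an adjusted p of 0.96 in edgeR. MAP2 (ENSG00000078018.22, chromosome 2, 209424047 to 209734112), the MAP of dendrites, was low. It had 78 and 77 counts in shRPRD1B cells and 56 and 44 in shCtrl cells, or 1.19 and 1.40 CPM against 1.18 and 0.904 CPM. The groups did not overlap, though the first knockdown library and the first control nearly coincided. The log2 fold change was 0.31 ± 0.31 (SE, interval -0.46 to 1.08), with an adjusted p of 0.806 in edgeR. Without the first or second shCtrl library it was 0.52 or 0.13, without the second shRPRD1B library 0.20, and no call was made. MAP4 supplied between 99.3% and 99.6% of the counted, length-scaled RNA of MAP2, MAP4 and tau in every library. MAPT enters this share with its low counts, whose limit is given below, so the share is not a measured one for tau. The ratio of MAP4 to MAP2 counts was 203 and 183 in shRPRD1B cells, against 213 and 282 in shCtrl cells. It rests on the few MAP2 counts.

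MAPT (ENSG00000186868.18, chromosome 17, 45894554 to 46028334) encodes tau, the axonal MAP that aggregates in several dementias. It had 84 and 39 counts in shRPRD1B cells and 23 and 83 in shCtrl cells, or 1.28 and 0.711 CPM against 0.486 and 1.71 CPM. Each group held a high and a low library, and the groups overlapped fully. The log2 fold change was -0.12 ± 0.61 (SE, interval -1.63 to 1.39), with an adjusted p of 0.968 in edgeR.

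The neighbours of MAPT were also almost without counts, which limits what its level can show. Of 11 protein-coding genes within 500 kb, 1 (9.09%) had a mean of at least 5 CPM, against 10678 of 19153 (55.8%) protein-coding genes overall and 48% to 100% around the other 9 genes. Their median was 0.715 CPM. KANSL1, a subunit of a chromatin-acetylating complex, had 1.95 and 2.63 CPM in shRPRD1B cells and 2.77 and 1.68 CPM in shCtrl cells. PLEKHM1, a lysosome adaptor, had 2 and 3 counts in shRPRD1B cells and 2 and 0 in shCtrl cells. GOSR2 and CDC27, beyond that window and chosen after their values were seen, had at least 34.3 CPM in every library. NSF, a vesicle-fusion ATPase also chosen after its values were seen, had 29 and 34 counts in shRPRD1B cells and 23 and 288 in shCtrl cells. The cause of the low counts around MAPT was not tested, and a low MAPT count is not a measured absence of tau RNA.

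**Figure D3:**
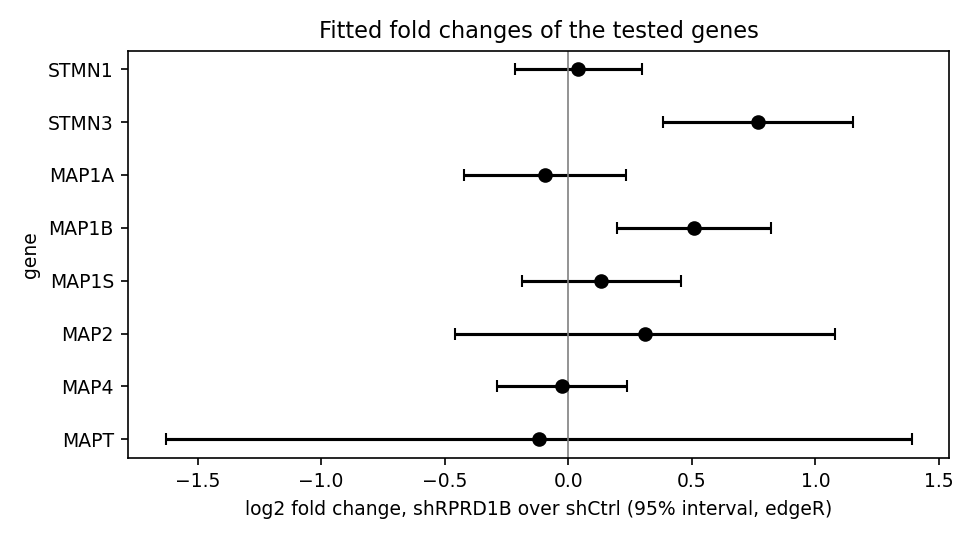
Log2 fold change of the 8 tested genes, shRPRD1B over shCtrl, as points with 95% intervals from edgeR. The intervals of STMN3 (0.38 to 1.15) and MAP1B (0.20 to 0.82) lie above 0, and those of the other 6 genes include 0.

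Levels between genes were compared as counts per kilobase of 1 GENCODE transcript, scaled to the same total in every library. STMN1 was the highest, at 336 and 362 in shRPRD1B cells and 322 and 323 in shCtrl cells on this length-scaled level. STMN3 was next, at 232 and 197 in shRPRD1B cells and 124 and 117 in shCtrl cells. MAP4 followed, at 98.2 and 114 in shRPRD1B cells and 100.3 and 105 in shCtrl cells. STMN3 and MAP4 did not overlap in either group, so their order was the same in both, with a wider gap in shRPRD1B cells.

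Below these came MAP1S, at a length-scaled level of 38.0 and 49.2 in shRPRD1B cells and 37.2 and 37.9 in shCtrl cells. MAP1B had 15.8 and 17.8 in shRPRD1B cells and 10.2 and 12.3 in shCtrl cells, and MAP1A had 5.83 and 6.45 in shRPRD1B cells and 5.70 and 6.74 in shCtrl cells. These neighbours did not overlap in the order. On the length-scaled level MAPT reached at most 0.532 and MAP2 at most 0.330, and they overlapped, so their order is not set. The transcripts used differ widely in length, with 12.036 kb for MAP1B and 1.712 kb for STMN1.

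Sequence stretches shared with annotated transcripts of other genes were few. No 50-base stretch of the transcripts of STMN1, STMN2, STMN4, MAP1A, MAP1B, MAP2 or MAP4 occurred in another gene's transcripts, and none of the 10 genes shared one with another. STMN3 shared 22 of 2206 such stretches (0.997%) with a processed pseudogene, Z99916.2, which had 6 and 7 counts in shRPRD1B cells and 4 and 4 in shCtrl cells. MAP1S shared 3.56% of its stretches with the antisense gene AC008761.1 and MAPT 0.432% with MAPT-AS1, and both antisense genes had 0 counts in every library. The sources used here do not give the strand setting of the counting, so sense and antisense reads cannot be told apart at those places. Only annotated transcripts of genes with another name were compared, and no reads were examined. Copies under the same name or outside that annotation would not be seen. The small share at MAPT therefore does not lift the limit on its counts given above.

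**Figure D4:**
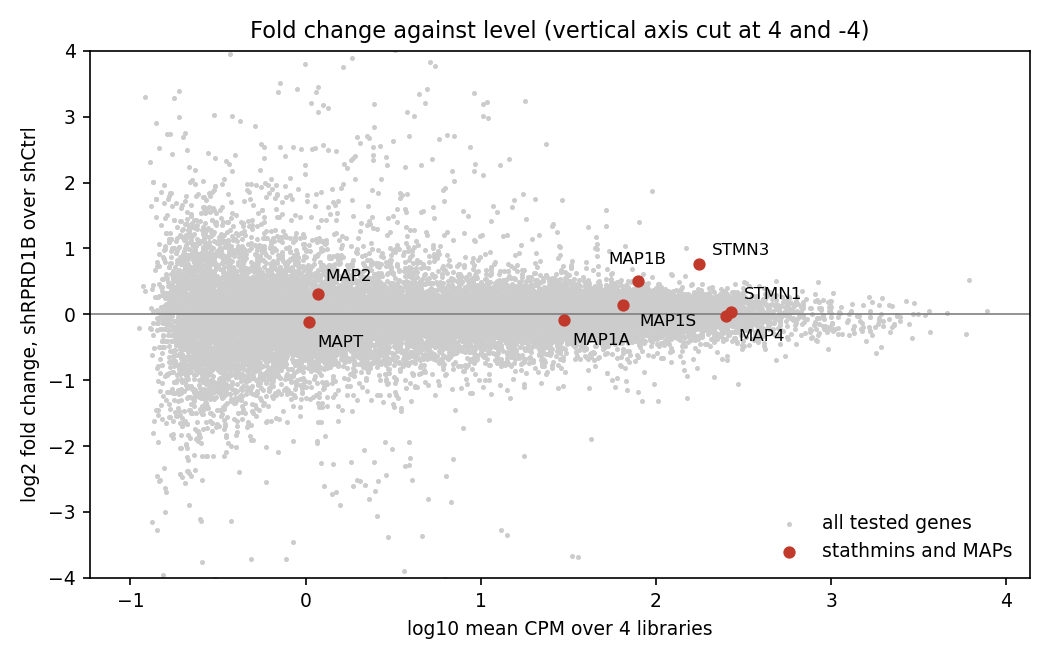
Log2 fold change, shRPRD1B over shCtrl, against log10 mean CPM over 4 libraries for all tested genes (grey) and the 8 stathmins and MAPs (red), with 31 genes beyond the limits of the vertical axis. STMN3 and MAP1B lie at the upper edge of genes of their level, and the other 6 lie within the cloud.

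The 5 genes most like STMN3 across the 4 libraries, by Euclidean distance of centred log2 CPM among 11445 genes of at least 5 CPM, were NFASC, RPRM, SHISAL1, TMEM145 and CDH23, at distances of 0.0648 to 0.122. NFASC, the axonal cell adhesion gene neurofascin, had 15.9 and 12.6 CPM in shRPRD1B cells and 9.20 and 8.24 CPM in shCtrl cells. TMEM145, a membrane protein gene, had 39.1 and 31.8 CPM in shRPRD1B cells and 20.2 and 19.0 CPM in shCtrl cells. Both share the STMN3 pattern of a higher first knockdown library. With 4 libraries in 2 groups, this likeness mostly restates the group difference and the gap between the knockdown libraries.

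Around the stathmins and MAPs, 8 lists of related microtubule genes held 123 genes, of which 114 were tested. edgeR called 0 of them at the adjusted threshold, limma voom called 0, and DESeq2 called 1, PPP2R2B, as higher, where 0.62% of all tested genes were. At an unadjusted p under 0.05 in edgeR, 8 were higher and 0 lower, against 3.55% and 3.94% of all tested genes. The median log2 fold change was 0.08, against 0.00 over all tested genes and 0.03 over those of at least 16 CPM. Values were positive for 75 and negative for 39, where 50.5% of all tested genes were positive. Both shRPRD1B libraries were above both controls for 36 of the 114 and below for 11, against 20.3% and 20.6% of all tested genes.

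Of the kinases and phosphatase subunits that act on stathmins and tau, all 19 were tested and 4 had an unadjusted p under 0.05, each with a higher value in shRPRD1B cells, where 3.55% of all tested genes were higher at that p. PPP2R2B, a brain-enriched regulatory subunit of protein phosphatase 2A, had 46 and 45 counts in shRPRD1B cells, against 1 and 2 in shCtrl cells. The ratio of summed counts per library size was 24.2, with an exact interval of 8.03 to 120 for counting error only. Its fitted log2 fold change of 4.50 ± 0.60 (SE) depends on few control counts, and the adjusted p was 0.082 in edgeR and 0.00627 in DESeq2. CDK5R2, an activator of the neuronal tau kinase CDK5, had 2.50 and 1.99 CPM in shRPRD1B cells and 0.633 and 1.34 CPM in shCtrl cells. BRSK2, a kinase of neuronal polarity, had 73.6 and 55.9 CPM in shRPRD1B cells and 47.4 and 44.5 CPM in shCtrl cells. TTBK2, a tau-tubulin kinase, had a log2 fold change of 0.38 ± 0.15 (SE). None of these 3 was called by edgeR (adjusted p from 0.619 to 0.66).

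Of the tubulin-modifying enzymes, 19 of 24 were tested; 2 were higher with an edgeR p under 0.05 before adjustment, against 3.55% of all tested genes, and 0 lower, against 3.94%. VASH1, which removes the last tyrosine of alpha-tubulin, had 79.4 and 66.6 CPM in shRPRD1B cells and 53.1 and 50.1 CPM in shCtrl cells, a log2 fold change of 0.50 ± 0.13 (SE, adjusted p 0.528 in edgeR). TTLL11, a glutamylating enzyme, had 23.3 and 26.4 CPM in shRPRD1B cells and 17.5 and 17.1 CPM in shCtrl cells (log2 fold change 0.52 ± 0.14, adjusted p 0.525 in edgeR). TTL, which puts the tyrosine back, had 96.4 and 95.9 CPM in shRPRD1B cells and 108 and 109 CPM in shCtrl cells, with an unadjusted p of 0.146, and the glutamylase TTLL5 had a log2 fold change of 0.27 with an unadjusted p of 0.131. VASH1 and TTL thus had values on opposite sides, neither past the adjusted threshold.

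Of the other lattice-binding MAPs, 18 of 19 were tested; 2 were higher with an edgeR p under 0.05 before adjustment and 0 lower, against 3.55% and 3.94% of all tested genes. MAP6, a stabiliser of cold-resistant microtubules, had 1.74 and 1.51 CPM in shRPRD1B cells and 0.654 and 0.966 CPM in shCtrl cells (log2 fold change 1.01 ± 0.33, adjusted p 0.607 in edgeR). EML6 had 14.0 and 14.2 CPM in shRPRD1B cells and 10.5 and 10.1 CPM in shCtrl cells (log2 fold change 0.45 ± 0.15, adjusted p 0.619 in edgeR). EML2, of the same protein family, had 28.8 and 17.1 CPM in shRPRD1B cells and 35.02 and 33.1 CPM in shCtrl cells. NUMA1, which anchors spindle poles, had an unadjusted p of 0.129.

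The other lists held no gene with an unadjusted p under 0.05 in edgeR. All 17 tubulins were tested, with a median log2 fold change of 0.06. TUBA1B, an alpha-tubulin, had 593 and 572 CPM in shRPRD1B cells and 557 and 544 CPM in shCtrl cells. TUBA4A, another alpha-tubulin, had 15.6 and 7.52 CPM in shRPRD1B cells and 18.6 and 17.7 CPM in shCtrl cells, where the second knockdown library was low. TUBA8 had a log2 fold change of -0.43 with an adjusted p of 0.756 in edgeR. TUBB, the main beta-tubulin of most cells, had 0.504 and 0.493 CPM in shRPRD1B cells and 0.359 and 0.349 CPM in shCtrl cells. Of 31 protein-coding genes within 500 kb of it, 2 (6.45%) had at least 5 CPM, a check added after its counts were seen. A low count in that place is therefore not a measured low level either. Single tubulins share sequence and are uncertain.

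The 22 end-binding proteins had a median log2 fold change of 0.08. The smallest p in that list was that of CAMSAP1, which caps minus ends, at 0.34 ± 0.14 (SE, adjusted p 0.674 in edgeR), and the highest value that of NAV2, a plus-end navigator protein, at 0.38 ± 0.16 (SE, adjusted p 0.677 in edgeR). TACC1 was at 0.29 and MAPRE2 at 0.22. The median was 0.09 over 11 of 12 severing and depolymerising proteins. In that list the severing ATPase FIGN had 21.5 and 26.4 CPM in shRPRD1B cells and 17.2 and 20.8 CPM in shCtrl cells, and the log2 fold change was 0.24 for FIGNL1, 0.19 for SPAST and 0.17 for KIF18B. The median was -0.06 over 6 of 7 folding cofactors, with TBCD at 0.15 ± 0.12 (SE), TBCEL at 0.09, TBCC at -0.12 and TBCA at -0.16. Of the MAP1 light chain 3 genes, MAP1LC3B, an autophagosome marker, had 75.1 and 96.6 CPM in shRPRD1B cells and 95.4 and 95.3 CPM in shCtrl cells. The first knockdown library was the low one. MAP1LC3C, a relative of MAP1LC3B, had 13 and 3 counts in shRPRD1B cells, against 24 and 12 in shCtrl cells, and both knockdown libraries were below both controls per library size. Its log2 fold change of -1.48 ± 0.72 (SE, adjusted p 0.696 in edgeR) was the lowest of the tested related genes and rests on few counts.

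**Figure D5:**
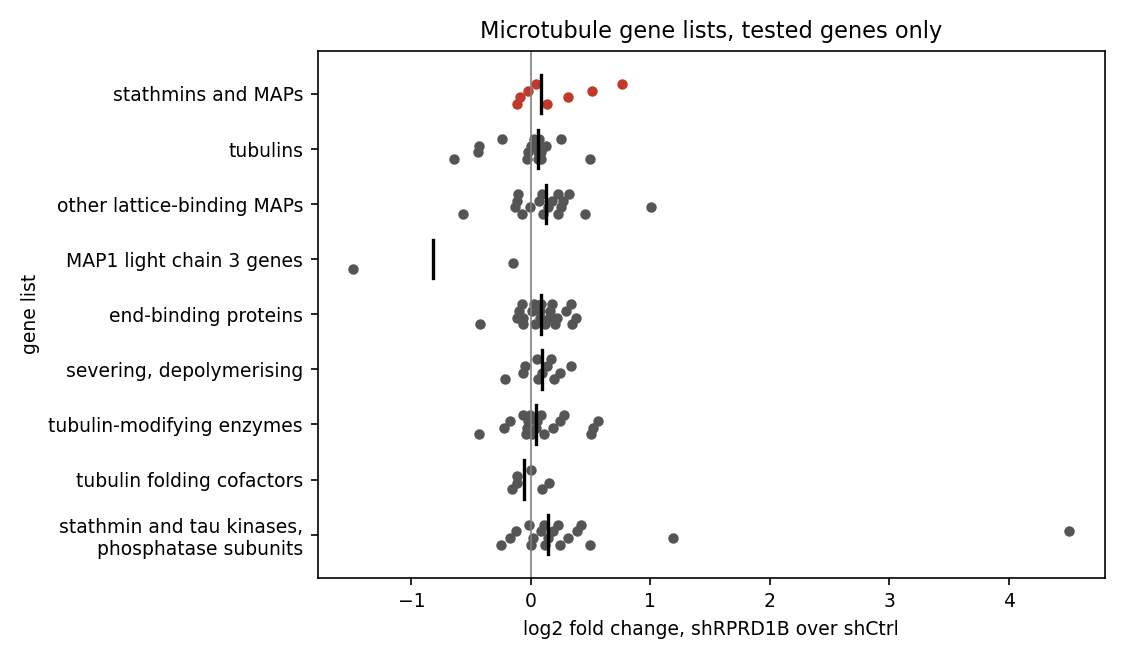
Log2 fold changes, shRPRD1B over shCtrl, of the tested genes of the stathmins and MAPs (red) and of 8 related microtubule lists (grey), with a black line at each list's median. Medians lie between -0.06 and 0.15 except in the light chain 3 list (-0.82, 2 genes), and PPP2R2B stands far to the right at 4.50.

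Several stathmins and MAPs are neuronal genes, so neuronal markers are given beside them. Of 10 markers, 9 were tested. edgeR called 0, with 4 at an unadjusted p under 0.05, all higher in shRPRD1B cells (SYN1, RBFOX3, ELAVL4 and SNAP25), where 3.55% of all tested genes were higher at that p. limma voom called 0, and DESeq2 called 1, SYN1, as higher, where 0.62% of all tested genes were. RBFOX3, a splicing factor of mature neurons, had 15.1 and 9.63 CPM in shRPRD1B cells and 7.32 and 6.68 CPM in shCtrl cells, and SYN1, a synaptic vesicle protein gene, had 1.95 and 2.43 CPM in shRPRD1B cells and 0.591 and 0.740 CPM in shCtrl cells. The summed marker level overlapped, at 255 and 189 CPM in shRPRD1B cells and 235 and 224 CPM in shCtrl cells, led by the neurofilament genes NEFL and NEFM. NEFM had 93.4 and 71.2 CPM in shRPRD1B cells, both below the 105 and 97.0 CPM of shCtrl cells, at a log2 fold change of -0.30. NEFL had a log2 fold change of -0.01 and TUBB3, a neuronal beta-tubulin, one of -0.44, and none of these 3 passed a test. TUBB3 had only 35 and 23 counts in shRPRD1B cells and 24 and 39 in shCtrl cells, and its groups overlapped. The median log2 fold change of the 9 tested markers was 0.57, against 0.00 over all tested genes. Both shRPRD1B libraries were above both controls for 6 markers and below for 1, against 20.3% and 20.6% of all tested genes. DCX, a marker of young neurons, had 2 and 0 counts in shRPRD1B cells and 0 in both shCtrl libraries. The part of these markers in the STMN3 and MAP1B values was not tested.

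Summed levels of other cell types' markers were 96.0 and 64.3 CPM for kidney epithelium in shRPRD1B cells, against 100.4 and 97.6 CPM in shCtrl cells. Of the kidney markers 5 of 7 were tested, and edgeR, limma voom and DESeq2 called 0 of them, with 0 at an unadjusted p under 0.05 in edgeR. Their median log2 fold change was -0.32, with 1 positive and 4 negative values. For 3 of the 5 both shRPRD1B libraries lay below both controls and for 0 above, against 20.6% and 20.3% of all tested genes. Fibroblast markers, led by COL1A1, summed to 24.6 and 22.2 CPM in shRPRD1B cells and 38.0 and 33.6 CPM in shCtrl cells. Of 4 tested fibroblast markers edgeR called 0, with 2 lower at an unadjusted p under 0.05, against 3.94% of all tested genes, and DESeq2 called 1 as lower, LUM, against 0.561%. Leukocyte markers stayed at or below 4.19 CPM and glial markers at or below 8.78 CPM in every library.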

How the data were processed

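RNA of 4 HEK293T samples, 2 per group, was made into poly(A) libraries by a sequencing provider, per the labels' protocols. Each deposited table gives raw read counts by gene identifier for 1 sample. Tools listed in the submitters' processing notes are Trim Galore, HISAT2 and featureCounts, with hg38 as the build. The sources used here give no versions, annotation release, strand setting or handling of multiply mapped reads.

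Counts were tested with edgeR 4.0.16 (R 4.3.3), quasi-likelihood fit with robust estimation, TMM factors, filterByExpr with a minimum count of 10 and the group as the only term. Benjamini-Hochberg adjustment ran over all 20319 tested genes, with a threshold of 0.05. The test was also run on simulated counts with planted fold changes, all larger than those of STMN3 and MAP1B. That check therefore does not cover changes of their size. Alternatives were DESeq2 1.42.0, limma 3.58.1 (voom), other scalings and filters, a replicate block and leaving out each library. CPM used TMM-scaled library sizes. Length-scaled levels used 1 GENCODE 29 transcript per gene (principal, then basic, then longest). Symbols came from reference tables (62686 of 69222 identifiers matched), and coordinates and promoters from RefSeq. Exact intervals of count ratios cover counting error only. Protein sequences were not used here.

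The members and lists were chosen with earlier results of these data known. Named genes were the members, RPRD1B, up to 4 tested genes of each list by smallest p, and the 5 genes most like the member with the smallest p; others are said to have been chosen after their values were seen or stand as examples of a list.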

Additional observations from a re-analysis of the deposited data

How the results depend on the processing

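The number of genes called depended on the processing, from 6 higher and 8 lower in edgeR to 126 and 114 in DESeq2, 0 and 0 in limma voom, 23 and 17 with no filter on low counts, and 0 of either under a filter of 5 CPM or more in 2 libraries. Leaving out each library gave 12 to 3139 higher and 36 to 3096 lower, most without a shRPRD1B library, with the lone library taken to vary as the shCtrl pair does. Among the stathmins and MAPs, 0 were called higher in edgeR, 1 in DESeq2 and 0 to 3 over the left-out libraries. The related genes called higher were 1 in DESeq2 and 0 to 33 over the left-out libraries, and those called lower 0 to 14. The highest of these left-out counts, for all genes, members and related genes alike, came without the first shRPRD1B library, where 21448 genes were tested. That fit leaves 1 library in the group, so its counts cannot show whether members or related genes exceed the share of all tested genes. The members' median was 0.10 in limma voom and 0.10 to 0.14 over the left-out libraries.

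Same-numbered deviations were nearly uncorrelated over the tested genes (r = 0.013), and the labels do not say whether the numbers pair the samples. With the numbers as a replicate block, 85 genes were called higher and 56 lower, with 1 member (STMN3, 0.76, adjusted p 0.0334 in edgeR) and 1 related gene higher.

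STMN3 stayed between 0.57 and 0.94 over 11 alternatives, and MAP1B between 0.40 and 0.62. With both libraries of each group kept, STMN3 was called in DESeq2 and with the replicate block, and MAP1B was not called. Signs turned for MAPT (0.081 in limma voom, and -0.76 to 1.05 over the left-out libraries), MAP4 (-0.068 to 0.022), MAP1A (-0.19 to 0.010), MAP1LC3B (-0.34 to 0.020), FIGNL1 (-0.052 to 0.49), KIF18B (-0.0077 to 0.33) and TBCEL (-0.036 to 0.22). The causes were not tested. STMN1, STMN3, MAP4 and the MAP1 genes had at least 1354 counts in every library, whereas STMN2, STMN4, MAP2 and MAPT had at most 84, which limits what their values can show.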
